A study of Mus musculus with 19 samples.

Results

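Blood vessels of 4NQO-induced oral tumours were followed through 10 genes chosen by name: 6 genes of blood endothelial cells (Pecam1, Cdh5, Cldn5, Tie1, Esam and Emcn) and 4 ligands of vessel growth (Vegfa, Angpt1, Angpt2 and Apln). All 10 were found by symbol among the 55487 genes of the count table, and all 10 were among the 16909 genes with enough counts to test. None of the 10 passed an adjusted p of 0.05 in any of 8 edgeR tests across the 5 treatment groups. Group means were lowest with regorafenib for Pecam1, Cdh5, Tie1, Esam, Emcn, Vegfa and Angpt1, by a small margin for Emcn and Vegfa. Cldn5 was highest on average with anti-PD1 and lowest with the combination, and the ligand Vegfa varied least.

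Endothelial cells line blood vessels and hold together through junction proteins. Vascular endothelial growth factor A (VEGF-A, from Vegfa) is secreted by hypoxic and epithelial cells and acts on the endothelial receptors encoded by Kdr and Flt1 to drive sprouting. Angiopoietin-1 (Angpt1), made largely by cells around the vessel, activates the receptor TIE2 (Tek) and steadies vessels, while angiopoietin-2 (Angpt2), made by endothelial cells, mostly opposes it, and apelin (Apln) is secreted by sprouting endothelial tip cells.

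Polyadenylated RNA was sequenced from 19 oral squamous cell carcinoma samples of C57BL/6J mice. All groups, vehicle included, had received the carcinogen 4-nitroquinoline 1-oxide (4NQO) at 100 µg/ml in their drinking water for 10 weeks from an age of 6 weeks, and plain water afterwards. The groups were regorafenib at 5 mg/kg/day (4 samples), anti-PD1 antibody (3), anti-PD1 with regorafenib, called the combination (5), an agonist antibody against CD40 (3) and vehicle (4). Regorafenib blocks VEGF receptors, TIE2, platelet-derived growth factor receptors and further kinases. PD1 restrains T cells, and CD40 activates antigen-presenting cells. The labels give no regorafenib dose for the combination separately, no antibody doses and no treatment time. Separate animals are not stated for the samples. The p-values therefore reflect only the scatter among these libraries, part of which may be technical.

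Promoters of 2 endothelial genes are shown, because Tie1 followed the other endothelial genes more closely across libraries than Cldn5 did. The gap was smaller after removing group means. RefSeq promoter entries on GRCm38.p6, each 300 bases from 250 before to 50 after the entry's own start, were matched for 5 of the 10 genes (Emcn, Tie1, Cldn5, Vegfa with 2 entries, and Apln). For Tie1 the entry's start lies inside the gene as placed below, which begins at 118490061 on the minus strand. Most of the Tie1 window therefore lies within that gene. In the Tie1 promoter at chr4:118489800-118490099 (minus strand), capitals mark GGAA, the core of sites bound by ETS factors, on either strand (TTCC is its complement). In the Cldn5 promoter at chr16:18776597-18776896 (plus strand), capitals mark the GC box core GGGCGG on either strand (CCGCCC is its complement).
Tie1: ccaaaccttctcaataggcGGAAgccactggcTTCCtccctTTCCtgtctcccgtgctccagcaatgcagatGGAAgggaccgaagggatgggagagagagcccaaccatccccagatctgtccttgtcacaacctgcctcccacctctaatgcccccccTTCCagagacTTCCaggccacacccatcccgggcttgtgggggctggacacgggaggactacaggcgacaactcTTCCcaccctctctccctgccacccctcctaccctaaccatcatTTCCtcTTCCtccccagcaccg
Cldn5: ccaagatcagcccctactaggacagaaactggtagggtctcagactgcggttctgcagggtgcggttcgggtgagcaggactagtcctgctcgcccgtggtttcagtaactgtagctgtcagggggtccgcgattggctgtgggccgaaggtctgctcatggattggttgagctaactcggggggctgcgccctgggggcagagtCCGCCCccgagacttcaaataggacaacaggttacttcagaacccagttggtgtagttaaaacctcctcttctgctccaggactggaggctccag

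GGAA occurred 9 times in the Tie1 promoter, 6 times in that of Emcn and 0 times in that of Cldn5. It is a short and common word: 96.0% of 32851 mouse promoters of the same length held it, with a median of 3 matches. GGGCGG occurred in 35.7% of those promoters, and it was found once (1 match) in Cldn5 and in Apln. The first Vegfa promoter held 6 matches of GGAA and 2 of GGGCGG. The hypoxia response core ACGTG, present in 19.6% of promoters, had 0 matches in the Tie1, Cldn5, Emcn and Apln promoters and 1 in the second Vegfa promoter. The 2 printed promoters hold no overlapping matches of different motifs. A match is a description of the letters and was not tied to any measurement here.

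Library totals ran from 16776177 to 24969492 counts. Levels are CPM, read counts per library size scaled by TMM (trimmed mean of M-values), as mean ± SD where averaged. Squamous epithelium was read from 8 genes (Krt5, Krt14, Krt13, Krt4, Krt6a, Trp63, Cdh1 and Epcam). All 8 had a mean of at least 1 CPM in each group, and their summed level was 50700 to 69950 CPM. These levels cannot tell carcinoma from normal epithelium, because no normal tissue was compared. Skeletal muscle genes were also abundant, at a summed 29180 to 60740 CPM over 18 genes, and salivary gland genes ranged from 38.0 to 17900 CPM between libraries. In bulk tissue, fewer cells of a type cannot be told apart from less RNA per cell.

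Per kilobase of exon, Vegfa stood highest, with a median over the 19 libraries of 31.1 CPM per kb. Cdh5 followed at 15.3 and Pecam1 at 13.5 CPM per kb. Esam had 8.17, Cldn5 7.55 and Tie1 6.37 CPM per kb, and Emcn had 2.32. The other ligands were low, at 0.925 CPM per kb for Angpt1, 0.552 for Angpt2 and 0.523 for Apln. Raw counts per library were 2031 to 3603 for Vegfa and 1081 to 2274 for Pecam1, but 25 to 81 for Angpt2 and 18 to 72 for Apln, so the last 2 genes carry the widest counting error. The coefficient of variation over all libraries was 12.2% for Vegfa, 14.5% for Emcn, 15.1% for Pecam1, 16.1% for Esam, 16.8% for Cdh5 and Tie1, 26.2% for Angpt2, 27.5% for Apln, 30.8% for Angpt1 and 33.6% for Cldn5. Cldn5 thus spread more widely than the other 5 endothelial genes.

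**Figure D1:**
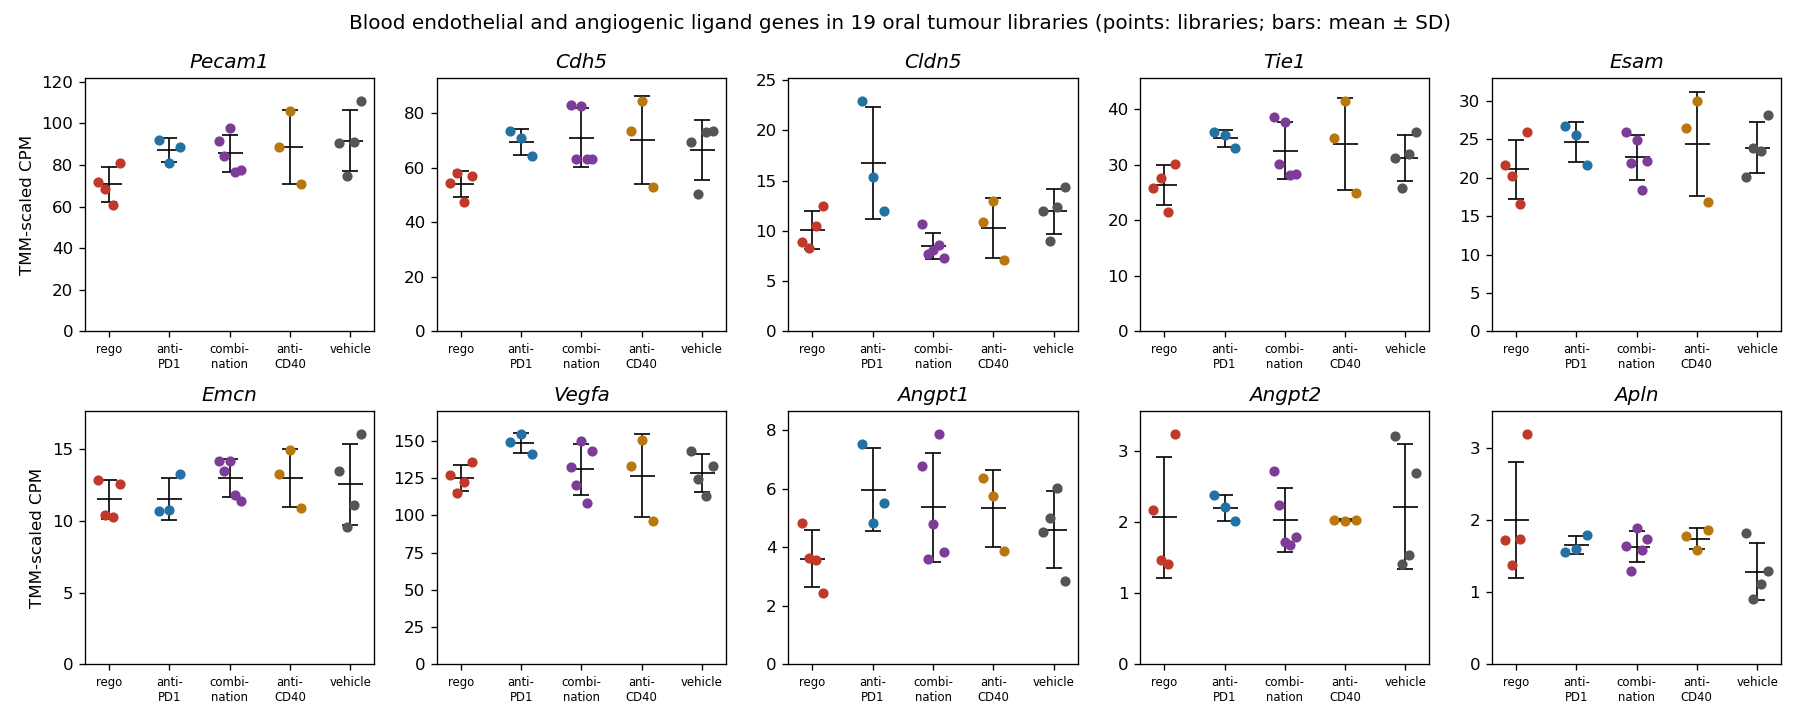
Level of each of the 10 genes (vertical axis, TMM-scaled CPM) in the 19 libraries by treatment group; each point is a library and the bars give mean ± SD. Pecam1 in the 4 regorafenib libraries lies between 60.9 and 81.1 CPM, against 74.8 to 111 CPM in vehicle, and Cldn5 in the 5 combination libraries lies between 7.32 and 10.7 CPM, below the 3 anti-PD1 libraries at 11.9 to 22.9 CPM.

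Regorafenib alone was compared with vehicle to follow vessel genes under a kinase inhibitor that blocks VEGF receptors. All 6 endothelial genes had estimates below 0 with regorafenib, from -0.38 to -0.12 on the log2 scale with a median of -0.25, where the median of all tested genes was 0.002. Of the 10 genes, 9 lay below 0, against 49.7% of all genes, and Apln was the exception. Endothelial genes moved together across libraries, as described below, so their signs are not independent observations. None of the 10 passed the adjusted threshold in edgeR, where 6.13% of all genes did. At an unadjusted p under 0.05 there were 2 (Pecam1 and Apln), against 24.7% of all genes. DESeq2 called 1 of the 10 (Pecam1, adjusted p = 0.0324) and 1684 of all 16909 genes. For none of the 10 were the regorafenib and vehicle libraries fully separated, as they were for 16.5% of all genes.

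Pecam1 (ENSMUSG00000020717.19, chr11:106654217-106750628, GRCm38, minus strand) encodes CD31, an adhesion molecule of endothelial junctions that is also carried by platelets and leukocytes. It was at 71.8, 68.6, 60.9 and 81.1 CPM in the 4 regorafenib libraries, against 90.3, 74.8, 91.1 and 111 CPM in vehicle libraries. The 2 groups overlapped only through the highest regorafenib library and vehicle 2. Means were 70.6 ± 8.37 CPM (SD, n = 4) with regorafenib and 91.7 ± 14.6 CPM with vehicle (n = 4), a log2 difference of -0.38 ± 0.13 (SE; 95% interval -0.64 to -0.11; edgeR adjusted p = 0.0806). Without vehicle 2 the difference was -0.46 (edgeR adjusted p = 0.0402), and over all settings tried the adjusted p ran from 0.0324 to 0.42. Pecam1 levels were 92.1, 80.8 and 88.5 CPM with anti-PD1, 91.6, 84.3, 97.6, 76.7 and 77.5 CPM with the combination, and 88.6, 106 and 70.8 CPM with anti-CD40. These 3 groups overlapped each other and vehicle.

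Cdh5 (ENSMUSG00000031871.9, chr8:104101625-104144511, plus strand) encodes VE-cadherin, the adhesion protein of endothelial adherens junctions. It was at 54.5, 58.0, 47.4 and 56.9 CPM with regorafenib, against 69.6, 50.3, 73.0 and 73.4 CPM with vehicle. Vehicle 2 was the only vehicle library inside the regorafenib range. The log2 difference was -0.30 ± 0.14 (95% interval -0.60 to 0.005; edgeR adjusted p = 0.209). The 95% intervals of the other 4 endothelial genes with regorafenib also crossed 0.

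Tie1 (ENSMUSG00000033191.14, chr4:118471191-118490061, minus strand), an endothelial receptor related to TIE2, was at 21.6 to 30.2 CPM in regorafenib libraries and 25.8 to 35.9 CPM in vehicle libraries, a log2 difference of -0.25 ± 0.15. Esam (ENSMUSG00000001946.14, chr9:37528078-37538319, plus strand), an endothelial cell adhesion molecule, was at 16.6 to 25.9 CPM with regorafenib and 20.1 to 28.2 CPM with vehicle. Emcn (ENSMUSG00000054690.17, chr3:137341067-137432185, plus strand), a sialomucin of capillary and venous endothelium, was at 10.3 to 12.8 CPM with regorafenib and 9.57 to 16.0 CPM with vehicle. Of the 4 regorafenib libraries, 3 lay within the vehicle range for Tie1 and Esam, and all 4 did for Emcn. Their edgeR adjusted p was 0.317 for Tie1, 0.531 for Esam and 0.632 for Emcn.

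Among the ligands, Vegfa (ENSMUSG00000023951.18, chr17:46016993-46032369, minus strand) averaged 125 ± 8.78 CPM with regorafenib and 129 ± 12.7 CPM with vehicle (SD, n = 4 each). Its log2 difference of -0.04 had a 95% interval of -0.29 to 0.21, the narrowest of the 10, so the data leave room for a modest difference either way. Angpt1 (ENSMUSG00000022309.9, chr15:42424723-42676977, minus strand) was at 4.82, 3.63, 3.55 and 2.44 CPM with regorafenib and 4.53, 4.99, 6.02 and 2.85 CPM with vehicle, a log2 difference of -0.35 ± 0.28. Angpt2 (ENSMUSG00000031465.6, chr8:18690263-18741562, minus strand) was at 1.41 to 3.24 CPM with regorafenib and 1.41 to 3.22 CPM with vehicle, a log2 difference of -0.10 ± 0.28. The 2 groups covered nearly the same range of Angpt2. For Angpt1 they overlapped, with vehicle 2 and 3 above all regorafenib libraries.

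Apln (ENSMUSG00000037010.7, chrX:48025146-48034853, minus strand) had the only positive estimate with regorafenib. It was at 1.72, 1.37, 1.75 and 3.19 CPM with regorafenib, against 1.83, 0.907, 1.12 and 1.30 CPM with vehicle. The log2 difference was 0.63 ± 0.24 (95% interval 0.13 to 1.14; edgeR adjusted p = 0.115). One library, regorafenib 4, was the highest of all 19, and without it the difference was 0.30 (edgeR adjusted p = 0.46). Over all settings it ran from 0.30 to 0.86, with an adjusted p of 0.0434 to 0.532. The lowest of these came with the salivary gland level as a covariate (log2 difference 0.72, edgeR adjusted p = 0.0434).

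The remaining treatments were set against the same 4 vehicle libraries, so these comparisons are not independent of the first. With anti-PD1 none of the 10 genes passed in edgeR (0.00591% of all genes did), nor with the combination (0.0237% of all genes) or anti-CD40 (0% of all genes, with 1048 at an unadjusted p under 0.05 and 5 called by DESeq2). At an unadjusted p under 0.05 there was 1 of the 10 with anti-PD1 and 1 with the combination, Cldn5 in both, and 0 with anti-CD40, and DESeq2 called none of the 10 in these 3 comparisons. No gene of the 10 had fully separated groups, a state found for 9.23% of all genes in the anti-PD1 comparison, 3.64% in that of the combination and 5.87% in that of anti-CD40. The median log2 difference of the 6 endothelial genes was 0.05 for anti-PD1, -0.01 for the combination and 0.04 for anti-CD40. The smallest edgeR adjusted p of the 10 was 0.509 for anti-PD1, 0.379 for the combination and 0.835 for anti-CD40. The summed endothelial level of the 3 anti-CD40 libraries was 183 CPM in the lowest and 290 CPM in the highest, a range that held all 4 vehicle libraries (193 to 278 CPM).

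Vegfa was at 150, 154 and 141 CPM with anti-PD1, against 143, 124, 113 and 133 CPM with vehicle, a log2 difference of 0.21 ± 0.13 (edgeR adjusted p = 0.638). Only vehicle 1 reached the anti-PD1 range. Angpt1 was at 7.53, 4.82 and 5.52 CPM with anti-PD1 and at 6.37, 5.74 and 3.87 CPM with anti-CD40, ranges that overlapped vehicle. Angpt2 stayed between 2.02 and 2.38 CPM in the 3 libraries of either antibody group. Apln had positive estimates against vehicle in all 4 treatments, with 0.35 ± 0.26 for anti-PD1, 0.33 ± 0.23 for the combination and 0.43 ± 0.26 for anti-CD40, and all 4 estimates share the vehicle libraries.

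**Figure D2:**
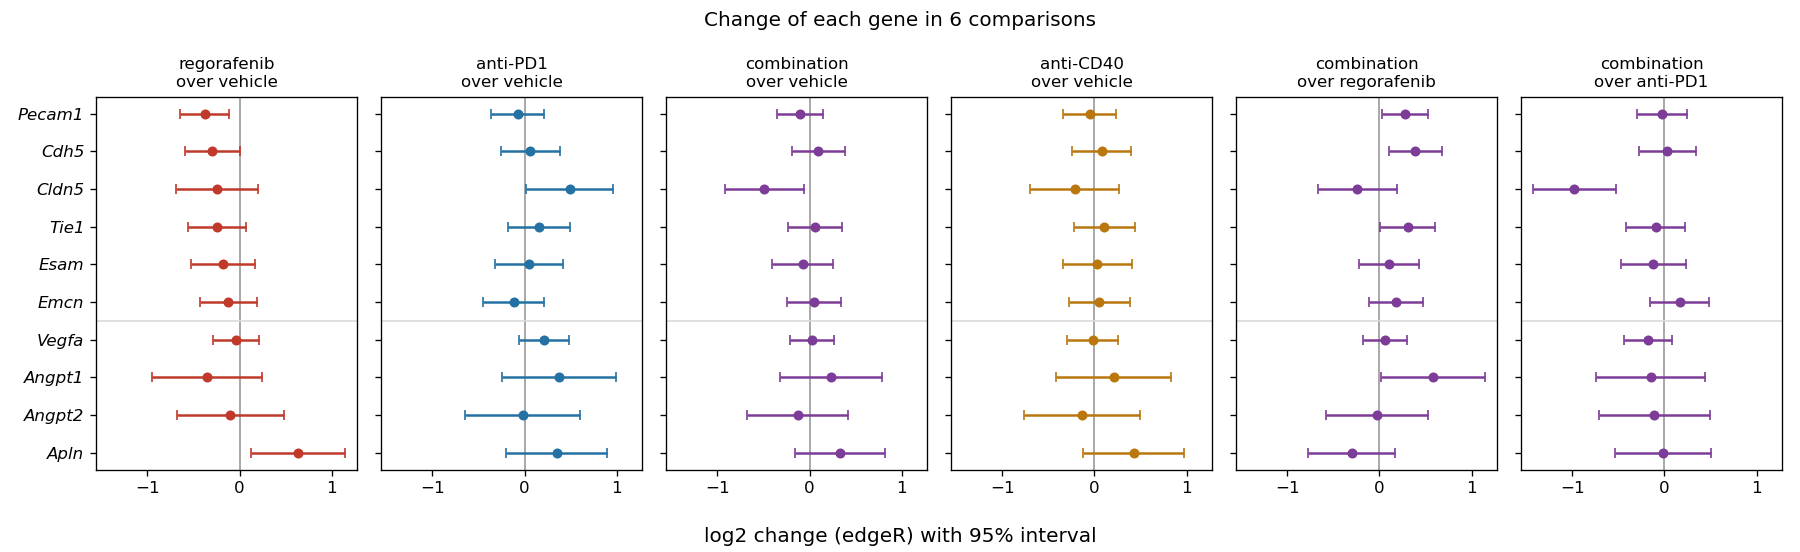
Log2 change of each of the 10 genes (rows; endothelial genes above the line, ligands below it) with its 95% interval from edgeR in 6 comparisons, 1 panel each. The 6 endothelial genes lie left of 0 with regorafenib over vehicle, and Cldn5 at -0.98 with the combination over anti-PD1 is the estimate farthest from 0.

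The combination was next compared with each of its parts. Against regorafenib alone, 7 of the 10 genes had estimates above 0, as did 48.9% of all genes, and 5 of the 6 endothelial genes did, with a median of 0.23. None of the 10 passed in edgeR, where 10.1% of all genes did. At an unadjusted p under 0.05 there were 4 (Pecam1, Cdh5, Tie1 and Angpt1), against 28.5% of all genes. DESeq2 called 1 of the 10 (Cdh5, adjusted p = 0.0305) and 2496 of all 16909 genes. This comparison uses the same regorafenib libraries as the first, so estimates of opposite sign in the 2 comparisons are not independent of each other.

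Cdh5 was at 82.9, 63.4, 82.7, 63.1 and 63.1 CPM with the combination, against 54.5, 58.0, 47.4 and 56.9 CPM with regorafenib. The 2 groups did not overlap, as was true of 14.0% of all genes, and Cdh5 was the only 1 of the 10. Means were 71.0 ± 10.8 CPM with the combination (SD, n = 5) and 54.2 ± 4.78 CPM with regorafenib (n = 4), a log2 difference of 0.39 ± 0.14 (95% interval 0.10 to 0.68; edgeR adjusted p = 0.0736). It passed when only these 2 groups entered the fit (edgeR adjusted p = 0.0357), and it was 0.15 (edgeR adjusted p = 0.715) with the skeletal muscle level as a covariate. Pecam1 differed by 0.28 ± 0.12 (edgeR adjusted p = 0.142) and Tie1 by 0.31 ± 0.14 (edgeR adjusted p = 0.164).

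Angpt1 was at 6.76, 3.61, 4.79, 7.85 and 3.84 CPM with the combination, against 2.44 to 4.82 CPM with regorafenib, a log2 difference of 0.58 ± 0.27 (95% interval 0.02 to 1.15; edgeR adjusted p = 0.16). Combination 1 and 4 lay above the regorafenib range, and the other 3 lay within it. Vegfa differed by 0.07 ± 0.11 and Angpt2 by -0.03 ± 0.26. Apln differed by -0.30 ± 0.22, and by 0.03 without regorafenib 4.

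Cldn5 (ENSMUSG00000041378.2, chr16:18776847-18778262, plus strand), a gene of 1416 bases encoding claudin-5, the tight junction protein that seals endothelial cells, had the estimate farthest from 0, with the combination against anti-PD1. There 0 of the 10 genes passed in edgeR, and 1 (Cldn5) had an unadjusted p under 0.05, as did 10.3% of all genes. DESeq2 called 1 of the 10 (Cldn5) and 110 of all 16909 genes. It was at 10.7, 7.69, 8.13, 8.62 and 7.32 CPM with the combination, against 22.9, 15.4 and 11.9 CPM with anti-PD1. The groups did not overlap, as was true of 7.36% of all genes, and Cldn5 was the only 1 of the 10. The log2 difference was -0.98 ± 0.21 (95% interval -1.43 to -0.525; edgeR adjusted p = 0.117, with 0.00591% of all genes called). DESeq2 gave -0.98 and an adjusted p of 0.00566, and over all settings the adjusted p ran from 0.00566 to 0.372. Anti-PD1 1 held the highest Cldn5 level of all libraries, and without it the difference was -0.68 (edgeR adjusted p = 0.372). The same library had the highest mean log2 CPM of all 19 for adipocyte genes (3.70), pericyte and smooth muscle genes (5.57) and platelet genes (2.60), and was among the 3 highest for salivary gland genes (7.12). Their part in the Cldn5 difference was not tested, apart from the salivary gland covariate, with which the difference was -0.96 (edgeR adjusted p = 0.115).

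Cldn5 was at 8.89, 8.28, 10.5 and 12.5 CPM with regorafenib, 10.9, 13.0 and 7.11 CPM with anti-CD40, and 11.95, 9.02, 12.4 and 14.4 CPM with vehicle. Its group means were 16.7 ± 5.60 CPM with anti-PD1, 10.3 ± 2.98 CPM with anti-CD40, 10.05 ± 1.89 CPM with regorafenib, 8.49 ± 1.32 CPM with the combination and 11.9 ± 2.21 CPM with vehicle. Ranked by mean, each group's range overlapped that of its neighbour. Against vehicle the log2 difference was 0.49 ± 0.23 with anti-PD1 (95% interval 0.02 to 0.96; edgeR adjusted p = 0.509) and -0.49 ± 0.20 with the combination (95% interval -0.91 to -0.07; edgeR adjusted p = 0.379). Without anti-PD1 1 the first was 0.19 (edgeR adjusted p = 0.994).

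For the other 9 genes, the combination and anti-PD1 groups overlapped, with log2 differences from -0.18 for Vegfa to 0.17 for Emcn. The interaction of regorafenib and anti-PD1, which asks whether the regorafenib effect differs when anti-PD1 is present, passed for none of the 10 in edgeR (0.461% of all genes passed, and DESeq2 also called 0 of the 10). Only Cldn5 of the 10 had an unadjusted p under 0.05 there, as did 15.9% of all genes. Its interaction was -0.73 ± 0.30 (95% interval -1.37 to -0.09, edgeR adjusted p = 0.248). Pecam1 had an interaction of 0.35 ± 0.18 and Apln of -0.65 ± 0.34, both with intervals across 0. In the test of any difference among the 5 groups none of the 10 passed in edgeR, where 3.94% of all genes did. Cldn5 came closest (edgeR adjusted p = 0.0648). It was the only 1 of the 10 with an unadjusted p under 0.05, which 4416 of all 16909 genes had. It was the only 1 of the 10 called by DESeq2, which called 2519 of all genes. It also passed without anti-PD1 3, without anti-CD40 2 and without anti-CD40 3.

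Genes that work with the 10 were read from lists of the same pathways. Over all genes, 3.29% rose and 2.84% fell with regorafenib against vehicle, and 5.45% rose and 4.68% fell with the combination against regorafenib. Among 9 other VEGF family ligands and receptors, none passed with regorafenib against vehicle in edgeR, and 7 had estimates below 0. Flt1, a VEGF receptor of endothelial cells, had the smallest p, at 59.0 ± 4.27 CPM with regorafenib and 80.7 ± 12.7 CPM with vehicle (log2 difference -0.45 ± 0.14, edgeR adjusted p = 0.0579). In the combination, 2 of the 9 rose against regorafenib (5.45% of all genes did). Nrp1, a VEGF co-receptor, was at 31.4 ± 5.74 CPM with the combination and 20.4 ± 1.88 CPM with regorafenib (log2 change 0.62 ± 0.14, edgeR adjusted p = 0.0127), and Flt4, the VEGF-C receptor found mainly on lymphatic vessels, was at 12.7 ± 1.60 CPM with the combination and 8.99 ± 1.09 CPM with regorafenib (0.50 ± 0.14, edgeR adjusted p = 0.0327). Nrp1 passed whichever library was left out, while Flt4 passed only without combination 2, 4 or 5.

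Of 5 angiopoietin and apelin partners (Tek, Ptprb, Angpt4, Aplnr and Apela), 4 could be tested and Ptprb passed. Ptprb encodes VE-PTP, the endothelial phosphatase that acts on TIE2 and VE-cadherin. It fell to 43.0 ± 2.34 CPM with regorafenib, against 61.4 ± 11.2 CPM with vehicle (log2 change -0.51 ± 0.14, edgeR adjusted p = 0.04), a call kept only without vehicle 2 when single libraries were left out. It was at 63.0 ± 7.87 CPM with the combination, against the same 43.0 CPM with regorafenib (0.55 ± 0.13, edgeR adjusted p = 0.0189), a call lost without combination 3 or regorafenib 4.

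Of 11 tip cell and Notch genes, Hey1, a target of Notch signalling, fell with regorafenib to 3.36 ± 0.378 CPM, against 4.94 ± 0.321 CPM with vehicle (log2 change -0.56 ± 0.13, edgeR adjusted p = 0.0183), a call lost without regorafenib 4. Nrarp, another Notch target, fell with the combination to 49.3 ± 3.50 CPM, against 61.7 ± 1.38 CPM with regorafenib (-0.32 ± 0.07, edgeR adjusted p = 0.0114), a call kept whichever library was left out. The other 9 genes passed in neither comparison.

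**Figure D3:**
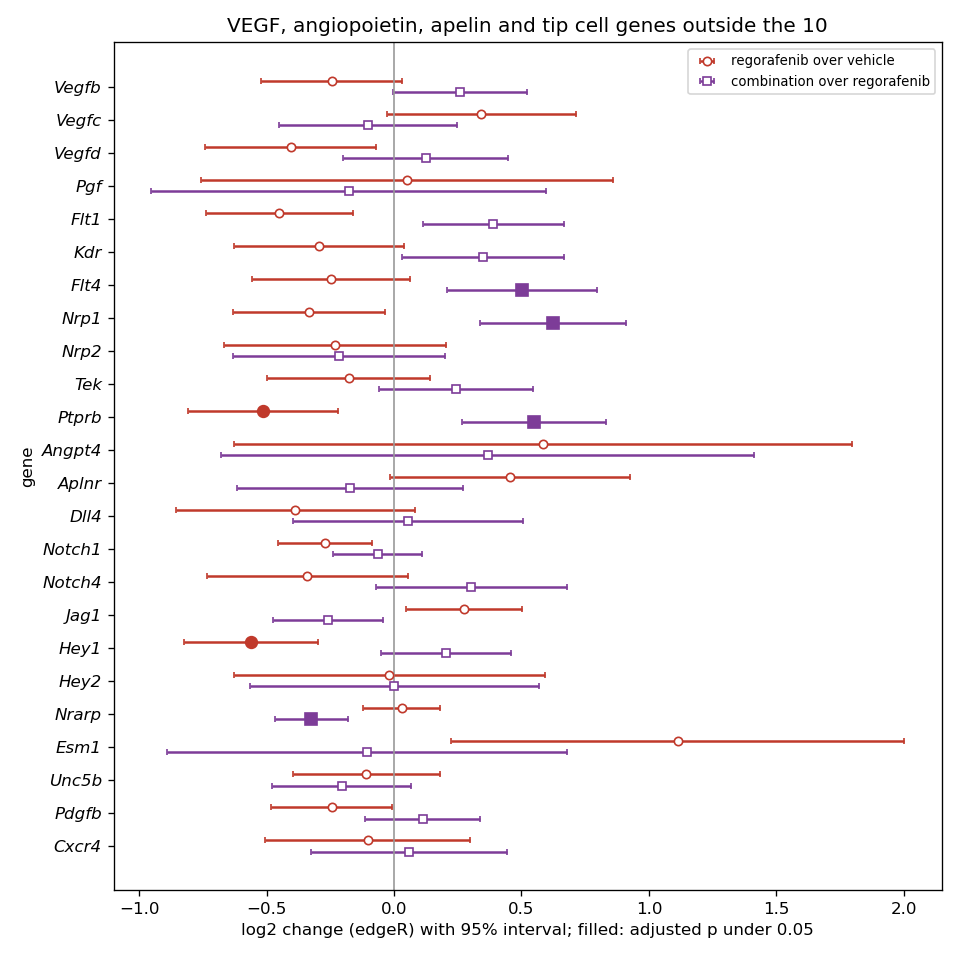
Log2 change with its 95% interval from edgeR (horizontal axis) for the 24 tested genes of the VEGF, angiopoietin and apelin, and tip cell lists (rows), with regorafenib over vehicle as circles and the combination over regorafenib as squares; filled symbols passed an adjusted p of 0.05. Ptprb and Hey1 are filled left of 0 among the circles, and Nrp1, Flt4 and Ptprb are filled right of 0 among the squares, with Nrarp filled left of 0.

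A list of 23 other blood endothelial genes, which shares Kdr, Tek and Ptprb with the lists above, had 21 members below 0 with regorafenib against vehicle and a median log2 difference of -0.19, where 49.7% of all genes lay below 0. Over the 19 libraries this list had a Pearson's r of 0.95 with the mean z-score of the 6 endothelial genes. Counts of signs in the 2 sets are therefore not independent observations. Of the 23, 1 rose and 1 fell (6.13% of all genes passed). Sox7, an endothelial transcription factor, rose to 50.2 ± 6.94 CPM with regorafenib, against 33.7 ± 5.85 CPM with vehicle (log2 change 0.57 ± 0.14, edgeR adjusted p = 0.0252), and Ptprb was the gene that fell. The Sox7 call was lost without vehicle 1, 3 or 4 or regorafenib 1 or 3. With the combination against regorafenib, 21 of the 23 were above 0 (48.9% of all genes were) with a median of 0.21, and Ptprb alone rose.

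Vessel subtypes were read from 14 arterial, venous and capillary genes, none of which passed with regorafenib against vehicle (smallest edgeR adjusted p = 0.088, for Ackr1, a venule gene). Against regorafenib, 1 rose and 1 fell in the combination: Cd36, a fatty acid receptor of capillaries, muscle and fat, changed by 0.48 ± 0.14 (edgeR adjusted p = 0.045), and Efnb2, an arterial ephrin, by -0.35 ± 0.09 (edgeR adjusted p = 0.0233). Cd36 passed only without combination 4 or 5, and Efnb2 was lost without combination 1 or 3 or regorafenib 1 or 4.

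Of 11 genes of cells that wrap vessels, 2 fell with regorafenib (2.84% of all genes did). Abcc9, a potassium channel subunit on this list, was at 64.0 ± 7.11 CPM with regorafenib and 91.7 ± 8.08 CPM with vehicle (log2 change -0.52 ± 0.12, edgeR adjusted p = 0.0226). Pdgfrb, the pericyte receptor for platelet-derived growth factor, changed by -0.51 ± 0.14 (edgeR adjusted p = 0.0412). The Abcc9 call was lost without vehicle 1 or 4 or regorafenib 4, and Pdgfrb passed only without vehicle 2 or regorafenib 1. With the skeletal muscle level as a covariate neither passed (edgeR adjusted p = 0.08 for Abcc9 and 0.188 for Pdgfrb). The summed level of the 11 was 465 to 513 CPM in regorafenib libraries, against 539 to 599 CPM in vehicle libraries. Against regorafenib, 3 of the 11 rose in the combination (5.45% of all genes did): Abcc9 by 0.68 ± 0.12 (edgeR adjusted p = 0.00606), Rgs5 by 0.48 ± 0.12 (edgeR adjusted p = 0.0186) and Pdgfrb by 0.52 ± 0.13 (edgeR adjusted p = 0.0233). Abcc9 held whichever library was left out, Rgs5 was lost without combination 1 or regorafenib 4, and Pdgfrb without combination 1 or 3 or regorafenib 2, 3 or 4. With the skeletal muscle level as a covariate none of these 3 passed. The edgeR adjusted p was then 0.101 for Abcc9, 0.334 for Rgs5 and 0.389 for Pdgfrb.

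Lymphatic genes had 0 of 6 tested members past the threshold with regorafenib against vehicle, led by Lyve1 (log2 difference -0.51 ± 0.15, edgeR adjusted p = 0.0523), and 4 of 6 rose with the combination against regorafenib (5.45% of all genes did). Lyve1, a hyaluronan receptor of lymphatic endothelium and some macrophages, rose by 0.69 ± 0.15 (edgeR adjusted p = 0.0115), a call kept whichever library was left out. Reln rose by 0.68 ± 0.19 (edgeR adjusted p = 0.0328), Mmrn1 by 0.68 ± 0.21 (edgeR adjusted p = 0.0436) and Flt4 as above. Reln passed only without combination 4 or 5 or regorafenib 1, and Mmrn1 only without combination 5.

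Of 14 genes of the hypoxia response, 4 rose with regorafenib against vehicle and 0 fell (3.29% and 2.84% of all genes did). Of the 14 estimates, 10 lay above 0 and 4 below. Ankrd37 was lower on average, at 2.81 ± 0.449 CPM with regorafenib and 3.73 ± 0.570 CPM with vehicle. Hif1a RNA was at 284 ± 35.6 CPM with regorafenib and 146 ± 31.7 CPM with vehicle (log2 change 0.96 ± 0.18, edgeR adjusted p = 0.00984). The oxygen-regulated transcription factor that it encodes was not measured as protein. Slc2a1, a glucose transporter, changed by 0.94 ± 0.13 (edgeR adjusted p = 0.00209), and both calls held whichever library was left out, though Hif1a did not pass with the muscle covariate (edgeR adjusted p = 0.0534) or the leukocyte covariate (edgeR adjusted p = 0.116). Ldha rose by 0.30 ± 0.08 (edgeR adjusted p = 0.0363), and Adm, a vasodilator peptide, by 0.52 ± 0.15 (edgeR adjusted p = 0.0442). Ldha passed only without vehicle 1 or regorafenib 3, and Adm only without regorafenib 3. Vegfa, a textbook hypoxia target, differed by -0.04 in the same comparison. With the combination against regorafenib, Epas1 rose by 0.36 ± 0.11 (edgeR adjusted p = 0.0402), a call kept only without combination 2, 4 or 5, and Slc2a1 changed by -0.47 ± 0.12 (edgeR adjusted p = 0.0237), a call lost without combination 1 or 3 or regorafenib 1 or 4.

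Of 11 other angiogenic factors, Adm was the 1 that passed with regorafenib, and Fgf1, a fibroblast growth factor, the 1 that passed with the combination against regorafenib (0.49 ± 0.12, edgeR adjusted p = 0.0209; lost without combination 1 or 3 or regorafenib 3 or 4).

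No gene of the vascular, hypoxia, pericyte or lymphatic lists passed in edgeR for anti-PD1, the combination or anti-CD40 against vehicle, for the combination against anti-PD1, or for the interaction. The gene with the smallest p of each list is given by its log2 difference. For anti-PD1 against vehicle these were Vegfc (0.31), Aplnr (0.64), Ptprb (-0.255), Cxcr4 (0.54), Vcam1 (0.66), Hgf (0.76), P4ha1 (0.39), Tagln (0.63) and Prox1 (-0.52), with edgeR adjusted p from 0.335 to 0.628. The combination against vehicle was led by Nrp2 (-0.45), Angpt4 (0.95), Egfl7 (-0.385), Nrarp (-0.29), Efnb2 (-0.235), Thbs2 (0.41), Hif1a (0.74), Abcc9 (0.16) and Pdpn (0.29), with edgeR adjusted p from 0.133 to 0.652. Anti-CD40 against vehicle was led by Vegfc (0.59), Tek (0.08), Egfl7 (-0.42), Notch1 (-0.29), Rgcc (0.29), Sema3a (-0.56), Ankrd37 (-0.575), Rgs5 (0.19) and Lyve1 (-0.38), with edgeR adjusted p from 0.781 to 0.943.

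The combination against anti-PD1 was led by Nrp1 (0.32), Ptprb (0.29), Egfl7 (-0.38), Cxcr4 (-0.58), Efnb2 (-0.185), Sema3a (0.54), Hif1a (0.50), Tagln (-0.42) and Prox1 (0.43), with edgeR adjusted p from 0.264 to 0.555. The interaction was led by Nrp1 (0.65), Ptprb (0.805, first in 2 lists), Esm1 (-1.10), Ackr1 (-0.715), Fgf1 (0.44), Slc2a1 (-0.80), Abcc9 (0.53) and Lyve1 (0.655), with edgeR adjusted p from 0.0563 for Slc2a1 and 0.0716 for Ptprb to 0.377.

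Levels of other tissues moved with these comparisons. All 8 squamous epithelium genes had estimates above 0 with regorafenib and 3 rose (3.29% of all genes did): Krt14 by 0.93 ± 0.20, Krt6a by 0.51 ± 0.13 and Krt5 by 0.44 ± 0.12 on the log2 scale, with edgeR adjusted p of 0.0155 to 0.0383. Krt14 was lost without vehicle 4 or regorafenib 4, Krt6a passed only without vehicle 2 or regorafenib 2, and Krt5 only without regorafenib 2. Their summed level was 65610 to 68280 CPM in regorafenib libraries, against 57210 to 61440 CPM in vehicle libraries. These did not overlap, as was true of 16.5% of all genes taken singly. The sum reached 69950 CPM with anti-PD1 and 67800 CPM with the combination, so the regorafenib range overlapped both of those groups. In the combination against regorafenib 0 of the 8 lay above 0 and Cdh1, an epithelial cadherin, fell (-0.28 ± 0.08, edgeR adjusted p = 0.033), a call lost without combination 1 or 3 or regorafenib 1, 3 or 4. Of 18 skeletal muscle genes, 6 fell and 0 rose with regorafenib (2.84% and 3.29% of all genes did), with summed levels of 29180 to 37130 CPM in regorafenib libraries and 43930 to 51290 CPM in vehicle libraries. The 4 with the smallest p were Ryr1 (log2 change -0.69 ± 0.11), Neb (-0.66 ± 0.11), Atp2a1 (-0.51 ± 0.13) and Myh4 (-0.50 ± 0.13), with edgeR adjusted p of 0.00401 to 0.0307; Ryr1 and Neb held whichever library was left out, Atp2a1 passed only without vehicle 2 or 3 or regorafenib 2, and Myh4 only without vehicle 2 or regorafenib 2. In the combination 9 of the 18 rose against regorafenib (5.45% of all genes did), with a summed 41030 to 55460 CPM, led by Neb (0.67 ± 0.10), Ryr1 (0.65 ± 0.10), Atp2a1 (0.59 ± 0.12) and Ttn (0.56 ± 0.12). Ttn was lost without regorafenib 4. Each of the 8 epithelial and 18 muscle genes had a mean of at least 1 CPM in every group. The muscle level was added to the fit as a covariate; the part of the epithelial level in the vascular differences was not tested.

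With the muscle covariate the regorafenib estimates against vehicle were -0.26 for Pecam1, -0.13 for Cdh5 and -0.06 for Tie1. Of the vascular and hypoxia calls for regorafenib against vehicle, Slc2a1 passed in that fit (log2 change 0.84) and Ptprb, Sox7, Hey1, Abcc9, Pdgfrb, Hif1a, Ldha and Adm did not. Their estimates kept their signs, at 0.77 for Hif1a, -0.49 for Hey1, 0.51 for Sox7, 0.49 for Adm, 0.35 for Ldha, -0.38 for Ptprb and -0.35 for Abcc9 and Pdgfrb. For the combination against regorafenib no named call passed with the muscle covariate, in a fit that called 6 of all genes. Estimates there were 0.50 for Nrp1 and Flt4, 0.53 for Lyve1, 0.91 for Reln and Mmrn1, 0.44 for Abcc9, 0.35 for Ptprb and -0.23 for Nrarp. They were 0.18 for Cd36, 0.16 for Epas1, -0.18 for Efnb2, 0.20 for Fgf1, 0.24 for Rgs5, 0.30 for Pdgfrb and -0.33 for Slc2a1.

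With the leukocyte level as a covariate, Slc2a1 again passed for regorafenib against vehicle (log2 change 0.82), and the other vascular and hypoxia genes named above did not, in a fit that called 23 of all genes. Estimates there were 0.84 for Hif1a, -0.50 for Hey1, 0.59 for Sox7, 0.49 for Adm, 0.22 for Ldha, -0.38 for Ptprb, -0.43 for Abcc9 and -0.45 for Pdgfrb. The vascular calls of the combination against regorafenib all passed with this covariate.

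Of 8 adipocyte genes 6 could be tested, and all 6 lay below 0 for regorafenib against vehicle, with a median log2 difference of -1.38, and 1 fell (Lipe, a lipase, by 0.23 on the log2 scale, edgeR adjusted p = 0.0439, passing only without vehicle 2 or regorafenib 2). The mean log2 CPM of the list was 1.03 to 1.51 in regorafenib libraries and 1.43 to 2.83 in vehicle libraries. Only 2 of the 8 genes had a mean of at least 1 CPM with regorafenib and 3 with vehicle, so most estimates come from low counts. The summed level of the 8 overlapped, at 150.2 to 214.0 CPM with regorafenib and 174.7 to 227.5 CPM with vehicle. In the combination against regorafenib 5 of the 6 lay above 0, with a median of 1.13 and 0 past the threshold (smallest edgeR adjusted p = 0.0674, for Lipe). Salivary gland genes had none past the threshold in either comparison, led by Amy1 (edgeR adjusted p = 0.207 with regorafenib against vehicle and 0.246 with the combination against regorafenib). The part of these tissues in the vascular differences was not tested beyond the fits with a gland covariate. Of 5 red blood cell genes, Hbb-bs rose with regorafenib against vehicle (log2 change 0.77 ± 0.20, edgeR adjusted p = 0.0333), a call lost without vehicle 3 or 4 or regorafenib 1 or 4. It fell with the combination against regorafenib (-0.76 ± 0.19, edgeR adjusted p = 0.0207), a call lost without combination 1 or regorafenib 1 or 4. The 4 tested red blood cell genes lay above 0 with regorafenib against vehicle and below 0 with the combination against regorafenib.

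In the interaction of regorafenib and anti-PD1, the genes of these tissue lists that passed were Neb (0.92 ± 0.16, edgeR adjusted p = 0.0179), Ryr1 (0.82 ± 0.155, edgeR adjusted p = 0.0292) and Hbb-bs (-1.39 ± 0.285, edgeR adjusted p = 0.0467). Neb was lost without vehicle 3, anti-PD1 1 or 3 or regorafenib 4. Ryr1 passed only without vehicle 2, anti-PD1 2, combination 2, 4 or 5 or regorafenib 2 or 3, and Hbb-bs only without vehicle 2, combination 3 or regorafenib 2 or 3.

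Leukocytes and platelets also carry CD31, and their genes were read beside Pecam1. Of 8 leukocyte genes 1 rose with regorafenib (3.29% of all genes did). It was Cd3e, a T cell gene, which changed by 1.42 ± 0.28 (edgeR adjusted p = 0.0109), a call kept whichever library was left out and lost with DESeq2. Cd3e was low, at 1.335 ± 0.220 CPM with regorafenib and 0.498 ± 0.191 CPM with vehicle. Against the same vehicle libraries its estimate was also positive with the combination (1.30, edgeR adjusted p = 0.132). With anti-CD40 it was 1.17 (edgeR adjusted p = 0.697), and the anti-PD1 value is not given here. None of the 8 leukocyte genes passed with the combination against regorafenib (smallest edgeR adjusted p = 0.214, for Csf1r). The list summed to 73.0 to 85.6 CPM with regorafenib, against 59.1 to 81.7 CPM with vehicle. The 6 platelet genes summed to 11.8 to 13.6 CPM with regorafenib and 10.6 to 13.5 CPM with vehicle, 2 of them had a mean of at least 1 CPM in either group, and none of the 3 that could be tested passed (smallest edgeR adjusted p = 0.312, for Pf4, which also led with the combination against regorafenib at 0.463). With the leukocyte level as a covariate, the log2 difference of Pecam1 with regorafenib against vehicle was -0.295 (edgeR adjusted p = 0.42). The part of platelets in the Pecam1 difference was not tested.

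Across the 19 libraries, the 6 endothelial genes moved together to unequal degrees. Among 45 pairs of the 10 genes, Cdh5 and Tie1 were the most alike (Pearson's r = 0.953, Spearman's rho = 0.958, permutation p adjusted over the pairs = 0.00015, from the smallest p that 100000 permutations can give). Their r was 0.932 without the 2 libraries farthest from the median and 0.951 after removing group means. Pecam1 had an r of 0.902 with Tie1 and 0.871 with Cdh5. Of the 15 endothelial pairs 10 had an adjusted permutation p under 0.05, and the median r was 0.641. Cldn5 followed less closely, with an r of 0.087 with Emcn, 0.407 with Cdh5, 0.479 with Pecam1, 0.517 with Tie1 and 0.553 with Esam. These were 0.418, 0.69, 0.67, 0.678 and 0.627 after removing group means. By r, only its pair with Esam had an adjusted permutation p under 0.05 among these (0.0476).

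Ligands followed the endothelial genes less closely, with a median r of 0.356 over 24 pairs, of which 5 had an adjusted permutation p under 0.05. Esam and Vegfa were the closest of these (r = 0.67, rho = 0.588, adjusted permutation p = 0.00973, and 0.566 without the 2 farthest libraries), and Emcn and Angpt2 had an r of 0.579 (rho = 0.523, adjusted permutation p = 0.0391, and 0.453 without the 2 farthest). None of the 6 pairs of ligands passed. Angpt2 and Apln had an r of 0.514 (rho = 0.249, adjusted permutation p = 0.0586). It was 0.266 without the 2 libraries farthest from the Angpt2 median and 0.695 after removing group means, so it depended on how the libraries were handled. Libraries share depth and tissue makeup, and a correlation between them is a description of shared level.

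**Figure D4:**
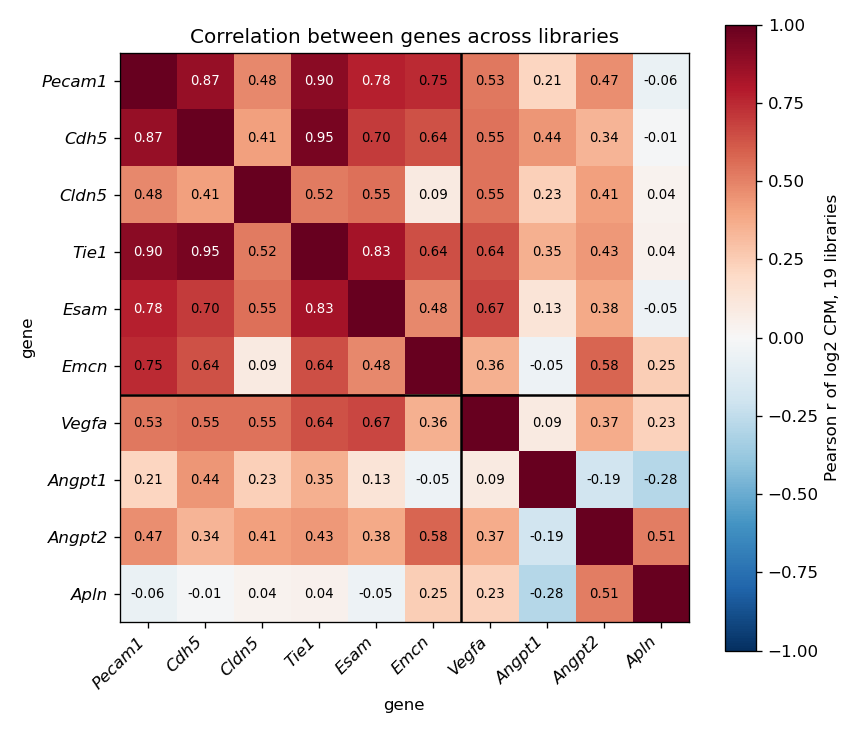
Pearson's r of log2 CPM between each pair of the 10 genes over 19 libraries, with endothelial genes first and ligands after the lines; colour runs from -1 to 1. The endothelial block holds values up to 0.953 for Cdh5 with Tie1, while Cldn5 has 0.087 with Emcn and the Apln row stays between -0.285 and 0.514.

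The counts of Angpt2 per count of Angpt1, ligands with opposing actions on TIE2, ranged from 0.397 to 1.33 with regorafenib, 0.316 to 0.46 with anti-PD1, 0.215 to 0.623 with the combination, 0.32 to 0.527 with anti-CD40 and 0.257 to 0.945 with vehicle. All 5 ranges overlapped. Counts of Vegfa per count of the 6 endothelial genes ranged from 0.594 to 0.733 with regorafenib and 0.466 to 0.643 with vehicle.

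The endothelial level was set beside other tissues over the 19 libraries, in 110 relations of the 10 genes with 11 lists. Squamous epithelium and skeletal muscle are described below. Relations with an adjusted permutation p under 0.05 also occurred with other lists, such as Pecam1 with lymphatic genes (r = 0.64) and Tie1 with pericyte genes (r = 0.63). Apln had an r of 0.66 with hypoxia genes (adjusted permutation p = 0.0282) but a rho of 0.36 (adjusted permutation p = 0.329). Pecam1 had an r of -0.30 with leukocyte and 0.13 with platelet genes, neither under 0.05. Pecam1 ran against the squamous epithelium level (r = -0.86, rho = -0.82, permutation p adjusted over the relations = 0.000367, from the smallest p the permutations can give), with an r of -0.76 without the 2 farthest libraries. Regorafenib libraries stood apart at the high end by mean log2 CPM of the epithelial genes, at 10.85 to 10.98, though not by summed CPM. The relation was therefore also read within groups and without these libraries. It was -0.81 after removing group means and -0.81 in the 15 libraries of the other groups. For Cdh5 the r was -0.77 over all libraries (rho = -0.85, adjusted permutation p = 0.00257, -0.74 without the 2 farthest) and -0.61 without the regorafenib libraries. For Tie1 it was -0.76 (rho = -0.79, adjusted permutation p = 0.0033, -0.68 without the 2 farthest) and -0.66 without the regorafenib libraries.

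With skeletal muscle the sign was the other way, at an r of 0.74 for Tie1 (rho = 0.73, adjusted permutation p = 0.00452, 0.77 without the 2 farthest) and 0.74 for Cdh5 (rho = 0.74, adjusted permutation p = 0.00452, 0.71 without the 2 farthest). Vegfa had an r of 0.55 with muscle (adjusted permutation p = 0.0655) and a rho of 0.60 (adjusted permutation p = 0.0417), and its r was 0.62 without the 2 farthest libraries and 0.62 after removing group means. Angpt1, Angpt2 and Apln had no adjusted permutation p under 0.05 with either tissue, by r or by rho.

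**Figure D5:**
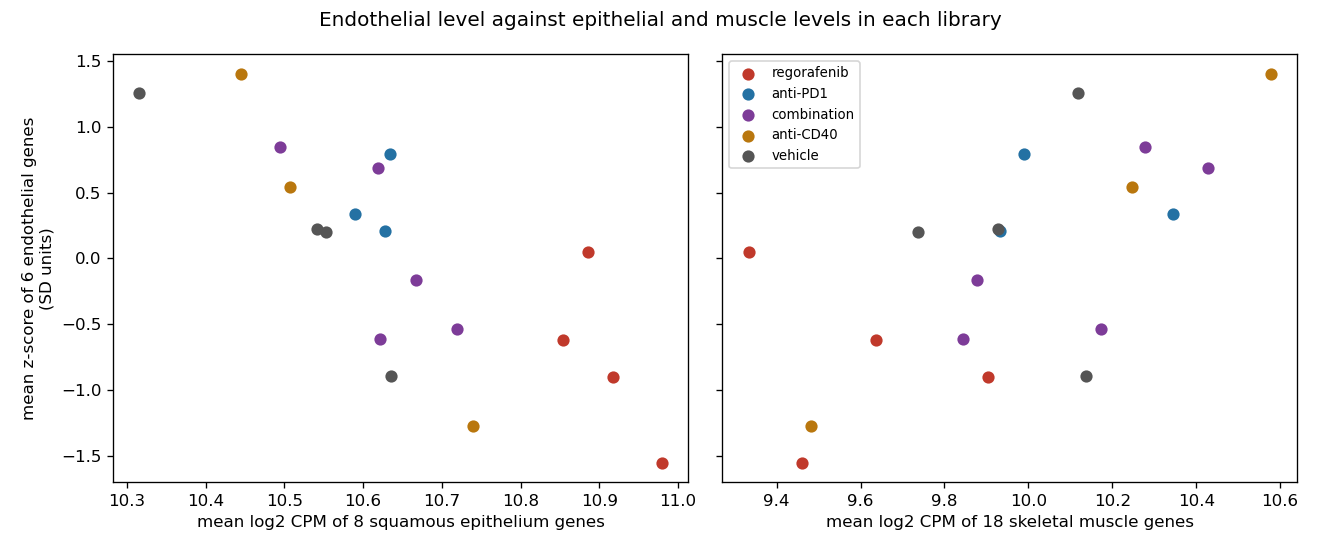
Mean z-score of the 6 endothelial genes (vertical axis, SD units of log2 CPM) in each of the 19 libraries against the mean log2 CPM of 8 squamous epithelium genes (left) and of 18 skeletal muscle genes (right), coloured by group. Points fall from upper left to lower right on the left panel, with the 4 regorafenib libraries at 10.85 to 10.98 on its right side, and rise from left to right on the right panel.

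By likeness over the 19 libraries among 13351 genes with a mean of at least 1 CPM, the 6 genes closest to the mean endothelial z-score were Sema3g (r = 0.946), Aes (0.931), Rapsn (0.927), Fxyd1 (0.922), March2 (0.921) and Sirt3 (0.92). The closest to Vegfa were Pkdcc (0.839), Ifngr2 (0.832) and Gna11 (0.812). Lum (0.869), Fbxo21 (0.843) and Egflam (0.825) were closest to Angpt1. Angpt2 was closest to Tigd5 (0.753), Oaf (0.748) and Hand2 (0.743), and Apln to Puf60 (0.791), Cpsf1 (0.759) and Bmp1 (0.742). These are Pearson's r of log2 CPM, chosen as the highest of the ranking, with no test.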

How the data were processed

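The deposited file is 1 table of read counts per gene for 19 samples, whole numbers that the authors had not normalized. The submitters' processing notes name cutadapt 2.4 and STAR 2.7.2a, with GRCm38 as the mouse build. A stranded kit with selection of polyadenylated RNA was used, per the labels' protocols. Which tool counted reads, and with which strand setting, is not given in the sources used here, so overlapping or antisense genes may share reads. Symbols and coordinates came from GENCODE M21 on GRCm38; 55227 of 55487 IDs matched without the version.

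filterByExpr (by group) kept 16909 genes with 99.9% of all counts. After TMM scaling (factors 0.954 to 1.04), all 19 libraries entered a single edgeR 4.0.16 quasi-likelihood fit (R 4.3.3), where every group had its own mean. Two-sided p-values received Benjamini-Hochberg adjustment over every tested gene, and 0.05 was the threshold. The SE is the log2 change over the square root of F, and 95% intervals use the fit's total degrees of freedom (17.5). Log2 CPM used a prior count of 2. Correlations used 100000 permutations with Benjamini-Hochberg adjustment. The 2 farthest libraries were those farthest from the median of the first-named gene of a pair, or of the list in a relation with a list.

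The 10 genes and the gene lists were chosen with earlier results of these data known. All 10 genes are described. Of each list, up to 4 genes that passed are named in order of p, or else the gene with the smallest p. This was applied to the vascular, hypoxia, pericyte and lymphatic lists in each comparison. For the lists of other tissues and blood cells it covered only regorafenib against vehicle, the combination against regorafenib and the calls of the interaction. Their leading genes elsewhere are not given, apart from Cd3e. The likeness rule took the 6 genes closest to the endothelial mean and the 3 closest to each ligand.

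As alternatives, scaling was changed to RLE, the filter was dropped, DESeq2 1.42.0 replaced edgeR, and only the compared groups were fitted. A replicate block, a muscle covariate, a salivary gland covariate and leaving out each library were also tried. A robust prior, a leukocyte covariate and a replicate block by the numbers in the deposited column names were added after seeing the data. The fit was tested on simulated data. Every pair of libraries differed by more than sampling noise (lowest chi-square per df 12.5). Figures were drawn with matplotlib 3.10.9.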

Additional observations from a re-analysis of the deposited data

Results flagged for a closer look

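In 1 of 30 combinations of gene and group with 4 or 5 libraries, a single library stood apart from the rest of its group. Cdh5 in vehicle 2 was at 50.28 CPM, and its gap to the nearest vehicle library was 0.836 of the group's range, above Dixon's critical value of 0.829. Chance flags about 1 group in 20. Vehicle 2 also had the lowest Pecam1, Tie1, Cldn5 and Emcn of the 4 vehicle libraries. Without vehicle 2 the log2 difference of Cdh5 with regorafenib against vehicle was -0.41 (edgeR adjusted p = 0.0747), where it was -0.30 with it (edgeR adjusted p = 0.209). In vehicle 2 the mean log2 CPM of salivary gland genes was 7.25, against -1.43 to 1.58 in the other vehicle libraries, and that of adipocyte genes was 2.83, against 1.43 to 1.72. With the salivary gland covariate the Cdh5 difference was -0.28 (edgeR adjusted p = 0.233); the part of adipose tissue was not tested.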

How the results depend on the processing

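The number of the 10 genes called, 0 in each of 8 edgeR tests, was recomputed 162 times and stayed at 0 in 151. It was 1 with DESeq2 for regorafenib against vehicle (Pecam1), the combination against regorafenib (Cdh5), the combination against anti-PD1 (Cldn5) and any difference among groups (Cldn5). It was also 1 with no filter for any difference (Cldn5), with only the groups compared for the combination against regorafenib (Cdh5) and with the salivary gland covariate for regorafenib against vehicle (Apln). Leaving out single libraries gave 0 to 1 for regorafenib against vehicle and 0 to 1 for any difference, and 0 in the other tests. Of 1340 recomputed estimates of the 10 genes, 96 changed sign; none of these was a call, and the main estimate was at most 0.301 in size. Calls over all genes moved more: with regorafenib against vehicle they were 1037, 235 to 1113 without single libraries, 157 with the muscle covariate, 23 with the leukocyte covariate and 1684 with DESeq2. With the combination against regorafenib they were 1714, 439 to 1717 without single libraries and 6 to 2496 otherwise. Of 19 named calls with regorafenib 1 (Slc2a1) held in every setting, and of 21 with the combination against regorafenib 0 did. With the replicate block 0 of the 10 were called in each test, by the numbers in the titles and by those in the column names, which differ for 4 libraries. Of same-numbered pairs of libraries 15 of 33 by title and 12 of 27 by column name had a correlation over 0.1 (range -0.45 to 0.54 and -0.47 to 0.52), so neither numbering met the rule that each pair exceed it. The block by title gave 654 calls over all genes with regorafenib and 1096 with the combination against regorafenib, and the block by column name 30 and 1802. Low counts limit Angpt2 and Apln, and 3 to 5 libraries a group limit every comparison.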
